A study of Mus musculus with 16 samples.

Results

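Kidneys of mice given cisplatin together with the NAD precursor nicotinamide riboside (NR) were compared with kidneys of mice given phosphate-buffered saline (PBS), across all genes. The comparison asks how much of the transcriptome of the NR-treated, cisplatin-exposed kidney still differed from that of the unexposed kidney. It used 8 of the 16 libraries in the study, 4 per group, chosen by the treatment named in the sample labels. The 16 libraries are whole kidneys of wild-type (WT) mice in 4 groups of 4, which were PBS, cisplatin, cisplatin with nicotinamide mononucleotide (NMN) and cisplatin with NR. The precursors were given by injection ahead of cisplatin, and the organs were taken 3 days after cisplatin. Strain, sex, age and doses are not given in the labels. No group analysed here received NR without cisplatin, so an effect of NR itself and an effect of cisplatin on the NR kidneys cannot be told apart against PBS. The labels do not say that the libraries of a group came from separate animals, so p-values measure the spread between these libraries, which may be technical.

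Cisplatin, a platinum-based cancer drug, forms crosslinks in DNA. It is concentrated by transporters in the proximal tubule, the nephron segment that reabsorbs most filtered solutes, and the kidney injury it causes limits its use. NR and NMN are precursors that cells convert to NAD, the redox cofactor that is also consumed by PARP enzymes and sirtuins. An injured tubule loses transporter expression and switches on a set of injury genes. The best known of these are Havcr1 (KIM-1) and Lcn2 (NGAL), both used as urinary markers. DNA damage also activates p53, whose classical target is the cell-cycle inhibitor Cdkn1a (p21).

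The promoters of 3 genes that rose carry sequence motifs of the pathways described in the results, and are shown for that reason. Each is the stretch of 250 bases before a RefSeq transcription start, read 5′ to 3′ on the gene's strand (build GRCm38.p6), with the matches of 1 motif per gene, the one named for it, in capitals. Cdkn1a (chr17:29090729-29090978, plus strand, 1 of its 2 windows) holds 1 match to the paired p53 core letters, which are CATG, 6 bases of any kind and CATG again. Mt2 (chr8:94172368-94172617, plus strand), a metallothionein gene, holds 3 matches to the metal response core, TGCACNC or TGCGCNC on either strand. Sprr1a (chr3:92485882-92486131, minus strand), a small proline-rich protein of squamous epithelium, holds 2 matches to the AP-1 letters, TGANTCA. The Mt2 window also holds AP-1 letters and the Sprr1a window a metal response core, both left in lower case, and none of the capitals overlaps a match to another of these motifs.
Cdkn1a: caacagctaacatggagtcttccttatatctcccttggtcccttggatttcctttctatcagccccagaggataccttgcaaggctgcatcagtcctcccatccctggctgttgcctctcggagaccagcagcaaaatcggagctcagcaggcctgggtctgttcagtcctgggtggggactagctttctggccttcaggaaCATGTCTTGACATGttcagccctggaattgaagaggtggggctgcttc
Mt2: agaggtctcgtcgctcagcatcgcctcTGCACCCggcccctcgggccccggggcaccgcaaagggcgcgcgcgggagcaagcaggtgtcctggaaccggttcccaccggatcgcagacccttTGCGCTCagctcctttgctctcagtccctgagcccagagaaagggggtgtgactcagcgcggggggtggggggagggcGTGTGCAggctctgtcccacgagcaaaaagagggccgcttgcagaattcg
Sprr1a: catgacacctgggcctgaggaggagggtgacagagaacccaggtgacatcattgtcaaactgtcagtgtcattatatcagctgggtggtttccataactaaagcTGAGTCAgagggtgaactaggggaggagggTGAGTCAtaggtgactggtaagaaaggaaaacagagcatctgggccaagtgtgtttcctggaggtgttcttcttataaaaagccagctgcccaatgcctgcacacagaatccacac
Searched on both strands over all 32851 windows of this length, the paired p53 letters were in 0.49%, the metal response core in 21.4% and the AP-1 letters in 6.75%. Among the windows of the p53 target list the paired letters were in 1 of 27, that of Cdkn1a. AP-1 letters were in 7 of 25 windows (28%) of the tubular injury list, which represent 21 genes, and in 0 of 19 windows of the immediate early list. The metal response core was in 9 of 26 windows (34.6%) of the NRF2 and metallothionein list, among them those of Mt1 and Mt2. It was in 6 of 19 windows (31.6%) of the immediate early list and 8 of 26 (30.8%) of the S1 and S2 proximal tubule list. A match is a description of these letters and does not show binding.

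Expression is given in TPM, the unit that corrects read numbers for gene length and scales each library to a common total of transcripts. The fold changes are differences of log2(TPM + 1), so they understate the change of genes near 0. A gene was called higher or lower at a Benjamini-Hochberg adjusted p under 0.05 from limma over 12960 tested genes, which reached 1 TPM in at least 4 of the 16 libraries. Markers of the labelled tissue were present in PBS kidneys, with 3255 ± 150 TPM (SD, n = 4) for the phosphate transporter Slc34a1, 568 ± 298 TPM for Umod, 168 ± 22.6 TPM for Aqp2 and 42.5 ± 13.98 TPM for the podocyte gene Podxl. TPM keeps no sequencing depth, so the depth of these libraries is unknown. The listed genes summed to between 860428 and 903678 TPM, and between 11535 and 12549 symbols reached 1 TPM. PBS library 1 had the highest share of mitochondrially encoded RNA in its group, 34.03% against 25.03% to 29.73%, and the lowest limma library weight of the 16, 0.566. NR libraries 3 and 4 had the highest summed level of adipose genes of the 8 libraries, 398 and 248 TPM against 23.7 to 126 TPM. Counts that move by more than 1.5 times without these libraries are given with both values. Of the 132 named genes called with all libraries, 38 lost their call without NR libraries 3 and 4, and 12 without PBS library 1. The first of these fits leaves only 2 NR libraries, and 26 lost their call without NR library 1 alone. Fewer libraries and fat content were therefore not told apart.

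The NR kidney differed from the PBS kidney mainly by genes that were higher. Of the tested genes, 1139 were called higher (8.79%) and 157 lower (1.21%), in all 1296 (10%). Under median-of-ratios scaling the counts were 1046 higher (8.07%) and 478 lower (3.69%), so higher calls made up 87.9% of all calls under TPM and 68.6% under that scaling. All 157 genes called lower were called lower under both scalings, as were 1007 of those called higher. The rises were larger than the falls. Among called genes, 429 were at least 2-fold higher (3.31% of those tested), 113 at least 4-fold and 15 at least 16-fold, whereas 1 was at least 2-fold lower (0.00772%), and 5 under median-of-ratios scaling (0.0386%). The median log2 difference was 0.84 among genes called higher and -0.51 among those called lower, and 0.06 over all tested genes. Genes called lower were abundant ones, with a median PBS level of 134 TPM, against 8.95 TPM for genes called higher and 9.29 TPM for all tested genes. Without NR libraries 3 and 4 the calls were 641 higher and 57 lower. The count of lower calls fell to 56 without NR library 1, 64 without PBS library 3, 77 without PBS library 4 and 103 without NR library 3. Without PBS library 1 it was 165, with 816 genes higher. With all libraries and a block for library number, more genes were called in each direction.

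**Figure D1:**
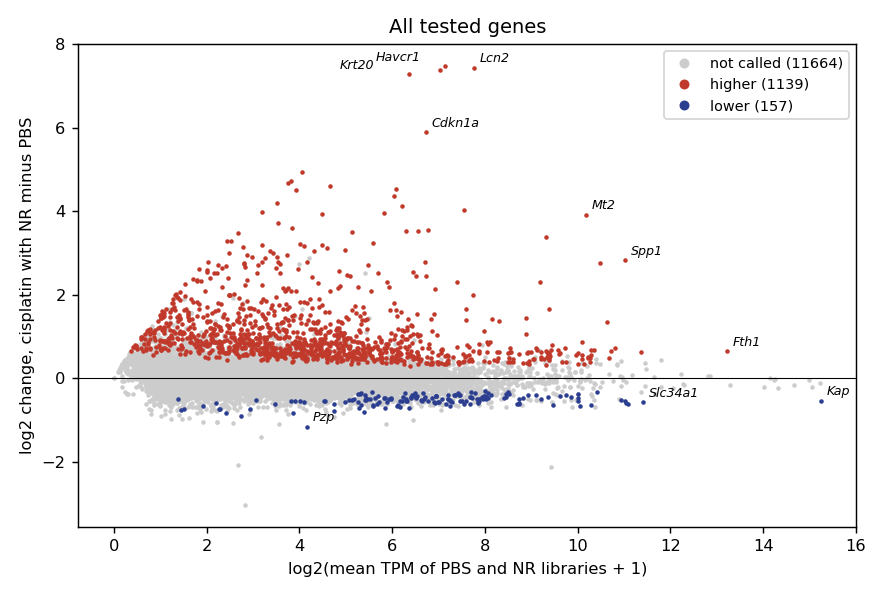
Difference of log2(TPM + 1) between 4 NR and 4 PBS libraries (vertical axis) against the mean level of those libraries on the log2 scale (horizontal axis), 1 point per tested gene. The 1139 genes called higher (red) reach 7.49 on the vertical axis, and the 157 called lower (blue) reach down to -1.16 and lie towards high levels.

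The injury genes of the tubule showed the largest differences. Of 29 genes on the tubular injury list, all tested, 25 were called higher and none lower, with a median log2 difference of 2.45, against the 8.79% called higher over all genes. The count was the same under median-of-ratios scaling and lay between 25 and 27 with any 1 library left out. The list joins injury markers, keratins, annexins and S100 proteins known from damaged epithelium.

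Havcr1 (chromosome 11, 46735080 to 46779578, GRCm38), a phosphatidylserine receptor of injured proximal tubule cells, stood at 0.13, 1.61, 0.16 and 0.63 TPM in PBS libraries 1 to 4 and at 337, 217, 272 and 284 TPM in NR libraries 1 to 4. Every NR library lay far above every PBS library. The log2 difference was 7.49 (SE 0.28, adjusted p = 7.47e-12), and the NR mean of 278 TPM was 23.1% of the mean of 1204 ± 60.1 TPM after cisplatin alone (adjusted p of that difference 9.4e-06). Lcn2 (chromosome 2, 32384633 to 32388252), an iron-siderophore binding lipocalin, was at 0.41, 3.7, 1.3 and 1.46 TPM in PBS and at 405, 496, 411 and 411 TPM in NR. The groups did not overlap, and the log2 difference was 7.44 (SE 0.31, adjusted p = 6.47e-11). Sprr1a was at 0.81, 0.88, 0 and 0.59 TPM in PBS and at 302, 196, 255 and 283 TPM in NR, a log2 difference of 7.39 (SE 0.20, adjusted p = 4.96e-14). Krt20, an intermediate filament keratin, was listed at 0.03, 0.09, 0 and 0 TPM in PBS and at 179, 122, 180 and 167 TPM in NR, a log2 difference of 7.29 (SE 0.22, adjusted p = 1.95e-13). NR library 2 was the lowest of its group for Havcr1, Sprr1a and Krt20, and the highest for Lcn2.

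Spp1, encoding the secreted matrix protein osteopontin, was the most abundant injury gene. It rose from 406, 615, 539 and 485 TPM in PBS to 4450, 2702, 3578 and 3921 TPM in NR (log2 difference 2.83, SE 0.19, adjusted p = 1.84e-08). S100a6, a calcium-binding protein, rose from 22.1 ± 11.1 to 353 ± 73.2 TPM (n = 4 each), and its NR level was 12.2% of that after cisplatin alone (2899 ± 453 TPM). The TWEAK receptor gene Tnfrsf12a rose from 16.3 ± 3.01 to 202 ± 39.1 TPM, and the chaperone clusterin (Clu) from 249 ± 26.2 to 691 ± 159 TPM. Members that did not pass were Vim, with 32.9 ± 11.3 and 45.2 ± 6.14 TPM (adjusted p = 0.144), Vcam1, with 3.43 ± 2.11 and 5.67 ± 0.478 TPM (adjusted p = 0.123), Krt7 and Ctgf. Vim and Vcam1 are known from dedifferentiated or incompletely repaired tubule cells. Other squamous-type genes, among them Sprr2f of the same list, were also among the largest rises. Crct1 was listed at 0 in the 4 PBS libraries and at 22.8, 20.1, 29.0 and 32.6 TPM in NR. Sprr2f averaged 0.04 TPM in PBS and 31.3 ± 5.38 TPM in NR, and its neighbour Sprr2g, named after its values were seen, was listed at 0 in PBS and at 25.0 ± 4.66 TPM in NR. Reads may be split between these near-identical Sprr2 copies.

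**Figure D2:**
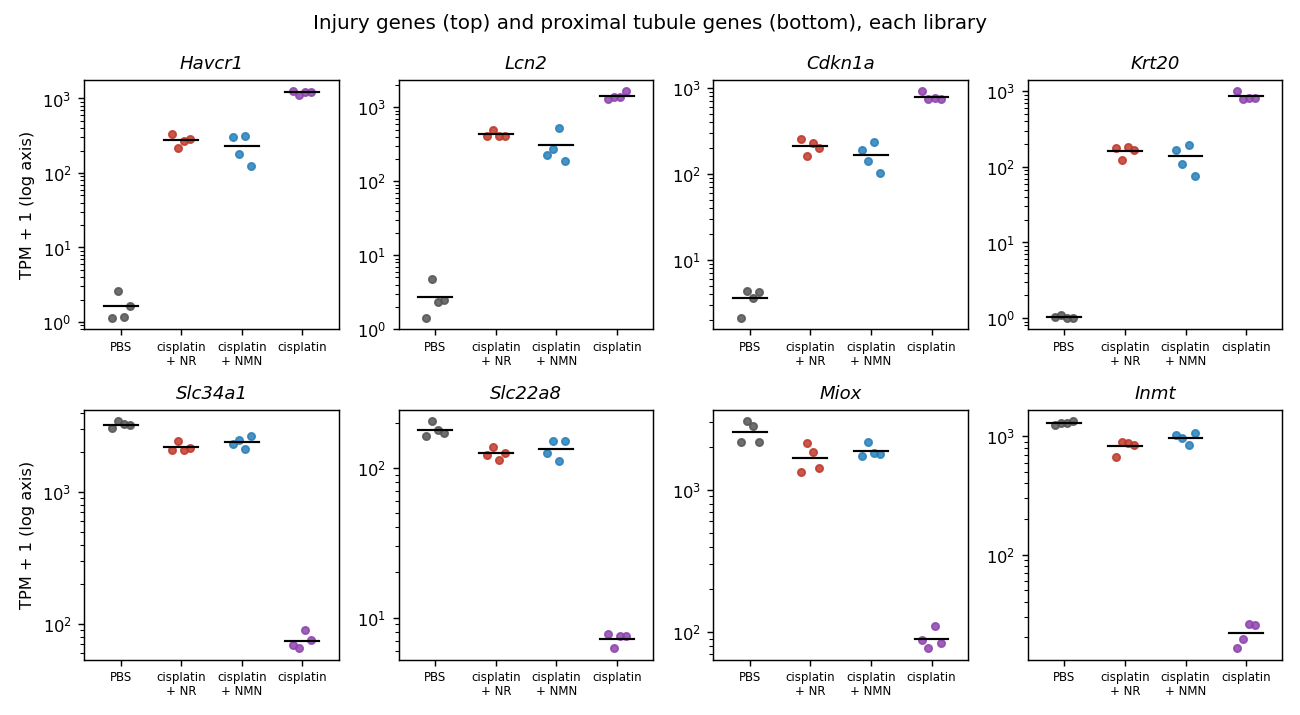
Levels in each of the 16 libraries (points, TPM + 1 on log axes whose ranges differ between panels) with group means (bars). For the 4 injury genes in the top row every NR library lies above PBS, for example 217 to 337 TPM for Havcr1 against 0.13 to 1.61 TPM, and for the 4 proximal tubule genes in the bottom row the NR libraries lie a little under PBS, with cisplatin alone far below.

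Targets of p53 were the next most complete group. Of 28 tested targets, 23 were called higher (82.1%, against 8.79% of all tested genes) and none lower. The median log2 difference was 1.22, and 22 or 23 were called higher with any 1 library left out. Cdkn1a (chromosome 17, 29090976 to 29100727) was at 1.13, 3.33, 2.68 and 3.23 TPM in PBS and at 250, 160, 225 and 200 TPM in NR, without overlap. Its log2 difference was 5.90 (SE 0.24, adjusted p = 2.38e-11), and the NR mean was 26.7% of the 783 ± 85.7 TPM after cisplatin alone. Gdf15, a stress cytokine of the TGF-beta superfamily, was at 3.29, 5.05, 6.9 and 3.95 TPM in PBS and at 122, 134, 139 and 123 TPM in NR (log2 difference 4.53, SE 0.20, adjusted p = 6.52e-11). The AKT repressor Phlda3 rose from 4.70 ± 1.18 to 64.0 ± 18.3 TPM, and the antiproliferative gene Btg2 from 5.92 ± 1.82 to 55.8 ± 4.91 TPM. Among targets that act in cell death, Bax rose from 61.5 ± 13.4 to 126 ± 35.6 TPM, and Bbc3 and Pmaip1, which encode PUMA and NOXA, had log2 differences of 1.99 and 1.55. Mdm2, the ubiquitin ligase that degrades p53, rose from 20.3 ± 0.873 to 62.3 ± 10.3 TPM. The 5 targets not called were Sesn1, Xpc, Tigar, Rrm2b and Ddb2, with log2 differences between -0.17 and 0.18. Xpc and Ddb2 encode damage-recognition factors of nucleotide excision repair. Sfn, a p53-responsive 14-3-3 protein outside the list, rose from 3.40 ± 0.386 to 39.6 ± 3.87 TPM, and Psrc1 from 0.26 ± 0.183 to 28.03 ± 5.59 TPM.

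Proliferation genes did not move in the same way. Of 22 tested genes of the cell cycle and DNA replication, 1 was called, the helicase subunit Mcm7, at 5.48, 8.27, 9.12 and 4.78 TPM in PBS and 11.6, 11.9, 12.6 and 11.6 TPM in NR (log2 difference 0.75, SE 0.17, adjusted p = 0.00815). That share, 4.55%, was below the background of 8.79%. The mitotic gene Top2a had 0.758 and 0.862 TPM, and the replication clamp Pcna 23.5 and 31.9 TPM (adjusted p = 0.087). Of 19 genes of the apoptosis and necroptosis machinery, 5 were called higher (26.3%, against 8.79%), among them Birc3, Bcl2l1, Bak1 and Mcl1. Birc3, Bcl2l1 and Mcl1 encode inhibitors of apoptosis, and Bak1 a pore-forming executioner. Bcl2l1 rose from 47.7 ± 10.1 to 104 ± 17.6 TPM, and Bak1 from 6.23 ± 0.305 to 14.1 ± 3.37 TPM. The necroptosis gene Mlkl was at 0.742 TPM in PBS and 1.91 TPM in NR (adjusted p = 0.12), and Ripk3 at 1.35 and 1.52 TPM.

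Immediate early transcription factors, normally induced within minutes of a stimulus, were higher in the NR kidneys, taken 3 days after cisplatin. Levels at other times were not measured, and the stimulus was not tested. Of 19 tested, 15 were called higher (78.9%, against 8.79% of all tested genes) and none lower. The median log2 difference was 1.21. Fosl1, an AP-1 subunit, was listed at 0, 0, 0 and 0.28 TPM in PBS and at 20.99, 9.79, 14.9 and 19.8 TPM in NR, without overlap (log2 difference 3.98, SE 0.30, adjusted p = 7.67e-08). Egr1 was at 3.81, 5.37, 1.88 and 2.9 TPM in PBS and 29.4, 22.1, 24.9 and 26.6 TPM in NR, also without overlap (log2 difference 2.63, SE 0.22, adjusted p = 2.04e-07). Junb rose from 8.99 ± 3.38 to 40.0 ± 2.93 TPM, Klf6 from 5.97 ± 0.751 to 17.9 ± 2.29 TPM and Myc from 1.46 ± 0.78 to 11.3 ± 2.11 TPM. Nr4a1 and Dusp1 did not follow, with log2 differences of 0.02 and 0.04. Of 20 transcription factors of the kidney epithelium and its repair, 7 were called higher, which were Egr1, Myc, Sox4, Runx1, Sox9, Cebpb and Cebpd. Sox9, a factor of regenerating tubule cells, rose from 0.12 to 1.49 TPM (adjusted p = 0.0029). The epithelial identity factors Hnf4a and Pax8 were not called, with log2 differences of -0.34 and 0.30.

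Inflammatory genes rose in part. Of 20 tested cytokine and chemokine genes 8 were called higher (40.0%, against 8.79% of all tested genes) and none lower. The median log2 difference was 0.68. Cxcl1, a neutrophil attractant, was at 0.25, 2.51, 1.72 and 0.57 TPM in PBS and at 15.1, 24.8, 33.6 and 27.99 TPM in NR (log2 difference 3.61, SE 0.32, adjusted p = 4.39e-07). The groups did not overlap, and the NR mean was 25.2% of the cisplatin mean of 101 ± 7.69 TPM. Cxcl2 rose from 0.142 ± 0.285 to 5.97 ± 2.09 TPM, Ccl20 from 0.052 ± 0.105 to 2.72 ± 0.551 TPM, and the macrophage growth factor Csf1 from 2.28 ± 1.36 to 13.9 ± 3.9 TPM. Ccl2, the main monocyte attractant, was at 0, 1.16, 0.52 and 0.35 TPM in PBS and at 3.01, 2.96, 2.66 and 2.99 TPM in NR (adjusted p = 0.00154). Il6, Tnf and Cxcl9 were too low to be tested.

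Interferon-stimulated genes and genes of nucleic acid sensing also rose in part. Of 38 tested interferon-stimulated genes, 10 were called higher (26.3%, against 8.79% of all tested genes) and none lower. The list's median log2 difference was 0.41. Oasl1 rose from 1.26 ± 0.59 to 7.95 ± 1.32 TPM, Irf7, a transcription factor of the response, from 6.60 ± 1.62 to 20.1 ± 3.25 TPM, and Isg20 from 2.10 ± 0.788 to 9.04 ± 3.01 TPM. The ubiquitin-like modifier Isg15 was at 5.35, 6.87, 4.38 and 6.43 TPM in PBS and 19.6, 11.7, 21.7 and 8.27 TPM in NR, which did not overlap but varied within NR (adjusted p = 0.00245). Without NR libraries 3 and 4 the list had 6 calls. Of 18 genes of RNA and DNA sensing and its signalling, 9 were called higher, 5 without PBS library 1 and 5 without NR libraries 3 and 4. Ddx58, which encodes the RNA sensor RIG-I, was at 5.34, 7.17, 6.22 and 4.09 TPM in PBS and 13.3, 11.03, 11.7 and 9.86 TPM in NR (log2 difference 0.91, SE 0.21, adjusted p = 0.00753). Tmem173, encoding the adaptor STING, rose from 2.01 ± 0.912 to 6.82 ± 1.43 TPM. The sensor Ifih1 (MDA5) and the adaptor Mavs were not called, with log2 differences of 0.20 and 0.08. NF-kappaB subunit genes Rela, Relb, Nfkb1 and Nfkb2 were all called higher, Nfkb2 from 5.96 ± 1.13 to 16.7 ± 3.67 TPM.

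Acute phase genes showed some of the largest rises. Of 21 tested acute phase and complement genes, 10 were called higher (47.6%, against 8.79% of all tested genes) and none lower. The median log2 difference was 1.44. Fgg, which encodes the fibrinogen gamma chain, was at 4.85, 5.31, 5.62 and 4.34 TPM in PBS and at 127, 123, 124 and 124 TPM in NR, a narrow range beside the cisplatin mean of 453 ± 167 TPM (log2 difference to PBS 4.38, SE 0.34, adjusted p = 2.04e-07). The neighbouring genes Fga and Fgb, for the alpha and beta chains, rose from 6.01 ± 1.41 to 106 ± 5.24 TPM and from 0.265 ± 0.042 to 7.28 ± 0.554 TPM. Saa1 was listed at 0 in all 4 PBS libraries and at 5.36, 34.3, 27.7 and 16.5 TPM in NR, and its reads may be shared with Saa2. Complement C3 rose from 4.12 ± 2.51 to 42.4 ± 15.6 TPM. The C1q chain genes C1qa, C1qb and C1qc, made by macrophages, had log2 differences between -0.07 and 0.01. Hp, encoding haptoglobin, was at 1.4, 5.62, 64.3 and 41.0 TPM in NR against 0.39 to 4.79 TPM in PBS (adjusted p = 0.0704, and 0.043 under median-of-ratios scaling). It was high in NR libraries 3 and 4, those with the highest adipose gene levels, and the part of fat tissue in its level was not tested. Of the liver markers none of 5 tested was called, and albumin (Alb) had 3.54 and 3.58 TPM. Gc, the vitamin D binding protein, rose from 7.26 ± 2.33 to 140 ± 17.3 TPM.

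Metallothioneins and genes of the antioxidant response rose, unevenly. Of 22 tested NRF2 targets and metallothioneins 14 were called higher (63.6%, against 8.79% of all tested genes) and none lower. Without NR libraries 3 and 4, 9 were called higher. The median log2 difference with all libraries was 0.55. Mt2, a zinc- and copper-binding protein, was at 97.9, 163, 153 and 159 TPM in PBS and at 1724, 2460, 2508 and 1992 TPM in NR, without overlap (log2 difference 3.92, SE 0.22, adjusted p = 1.56e-09). Mt1 rose from 358 ± 52.5 to 2482 ± 549 TPM, and reads may be shared between these paralogs. Hmox1, which degrades heme, rose from 22.5 ± 2.01 to 61.1 ± 5.14 TPM, and Srxn1, which repairs oxidised peroxiredoxins, from 20.9 ± 3.27 to 98.4 ± 11.2 TPM. Gsta1, a glutathione transferase, rose from 1.16 ± 1.1 to 47.3 ± 8.41 TPM, with a close paralog in Gsta2. Fth1, the ferritin heavy chain, was the most abundant gene called higher, at 7465 ± 578 TPM in PBS and 11714 ± 547 TPM in NR. The glutathione synthesis genes Gclm and Gclc were not called, with 220 and 217 TPM and with 68.7 and 77.7 TPM.

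Ribosomal protein genes were higher by a small amount. Their median log2 difference was 0.47, and 20 of 25 tested were called higher (80.0%, against 8.79% of all tested genes), none lower. The count was 13 under median-of-ratios scaling, 12 without PBS library 1, PBS library 4 or NR library 3, and 5 without NR libraries 3 and 4 together. Rplp0 was at 575, 720, 693 and 585 TPM in PBS and at 1142, 1002, 1088 and 1010 TPM in NR, without overlap (log2 difference 0.72, SE 0.10, adjusted p = 5.58e-05). The 25 genes took 1.767% to 2.149% of the listed TPM in PBS, 2.49% to 3.141% in NR, 2.208% to 2.925% with NMN and 4.917% to 5.549% after cisplatin alone. Of 26 tested genes of the ATF4 response, which answers amino acid shortage and other stress, 9 were called higher and 1 lower. These shares were 34.6% and 3.85%, against 8.79% and 1.21% of all tested genes. The translation repressor Eif4ebp1 rose from 6.20 ± 1.77 to 24.1 ± 2.92 TPM, and the serine synthesis gene Psat1 from 16.4 ± 1.12 to 35.3 ± 6.01 TPM. Atf4 itself was at 60.9 ± 8.46 and 82.9 ± 6.21 TPM (adjusted p = 0.00959), a call lost under median-of-ratios scaling (adjusted p = 0.059). Shmt2, the mitochondrial serine hydroxymethyltransferase, fell from 141 ± 9.13 to 104 ± 7.19 TPM. The ATF4 list had 5 members called higher without NR libraries 3 and 4. None of the aminoacyl-tRNA synthetase genes tested passed, for example Sars with 57.5 and 59.8 TPM and Nars with 36.8 and 41.4 TPM.

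Genes of the proximal tubule were lower by modest amounts. Of 21 tested genes of the S1 and S2 segments, 9 were called lower (42.9%, against 1.21% of all tested genes) and 1 higher, with a median log2 difference of -0.45. Of the 21, 20 had a negative difference. In whole kidney, fewer cells of a type and less RNA per cell cannot be told apart. The count was 11 under median-of-ratios scaling, higher still with a block for library number, and 5 in limma without trend and robust variance. It was 3 without NR library 1, 4 without PBS library 1, PBS library 4 or NR library 3, 5 without PBS library 2 or PBS library 3, and 1 without NR libraries 3 and 4.

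Slc34a1 (chromosome 13, 55398187 to 55415592), the main phosphate transporter of the brush border, was at 3086, 3448, 3271 and 3214 TPM in PBS and at 2088, 2459, 2072 and 2166 TPM in NR. Every NR library lay below every PBS library. The log2 difference was -0.57 (SE 0.10, adjusted p = 0.00118), and cisplatin alone gave 73.6 ± 10.7 TPM. Slc22a8, the organic anion transporter OAT3, was at 161, 203, 178 and 168 TPM in PBS and at 121, 137, 111 and 125 TPM in NR, without overlap (log2 difference -0.52, SE 0.12, adjusted p = 0.00822), beside 6.24 ± 0.676 TPM after cisplatin alone. Miox, an inositol-degrading enzyme specific to the proximal tubule, was at 2163, 3032, 2788 and 2164 TPM in PBS and 1338, 2128, 1830 and 1434 TPM in NR (log2 difference -0.60, SE 0.15, adjusted p = 0.0164). These ranges nearly touched. Kap, an androgen-regulated proximal tubule transcript, was the most abundant gene called lower, at 45826 ± 3346 TPM in PBS and 31695 ± 3370 TPM in NR (adjusted p = 0.0229). The glucose transporter Slc5a2 (SGLT2) was at 300 ± 28.1 and 234 ± 20.6 TPM (adjusted p = 0.0347). The endocytosis receptor Lrp2, encoding megalin, was at 104 ± 10.7 and 76.2 ± 13.4 TPM (adjusted p = 0.0449), while its partner Cubn, at 30.1 ± 5.17 and 23.4 ± 4.59 TPM, was not called. Against the list, Slc3a2, an amino acid transporter subunit that is also an ATF4 target, had 108 ± 7.8 and 142 ± 7.34 TPM (adjusted p = 0.00912), which did not pass under median-of-ratios scaling (adjusted p = 0.058).

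The S3 segment, the straight end of the proximal tubule and a known site of cisplatin injury, also had members called lower. Of 17 tested genes 2 were called lower (11.8%, against 1.21% of all tested genes) and 1 higher, with a median log2 difference of -0.49. Under median-of-ratios scaling 4 were called lower. Slc22a30, an organic anion transporter family member, was at 87.8, 72.3, 90.2 and 84.7 TPM in PBS and 50.3, 47.1, 52.4 and 62.7 TPM in NR, without overlap (adjusted p = 0.016). Ggt1, the brush border enzyme that also processes platinum-glutathione conjugates, was at 1078 ± 85.1 and 786 ± 52.6 TPM (adjusted p = 0.0351). Slc7a13, an amino acid transporter of S3, was at 433 ± 82.8 and 269 ± 54.0 TPM, without overlap, and missed the threshold (adjusted p = 0.0601), which it passed under median-of-ratios scaling (adjusted p = 0.0393). The efflux pump gene Abcc4 went the other way, at 6.23, 6.51, 5.22 and 8.11 TPM in PBS and 16.9, 14.98, 11.6 and 12.9 TPM in NR (log2 difference 1.01, SE 0.16, adjusted p = 0.000276). The S1 and S2 list and the S3 list were not tested against each other.

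The largest falls outside the proximal lists were in genes of varied function. Absence from these lists does not place a gene outside the proximal tubule, and where these genes are expressed was not tested. Pzp, a proteinase inhibitor related to alpha-2-macroglobulin, was the gene at least 2-fold lower, at 20.2, 24.7, 29.7 and 20.7 TPM in PBS and 11.7, 7.81, 9.94 and 10.8 TPM in NR (log2 difference -1.16, SE 0.33, adjusted p = 0.0313). Its call was lost in 11 of 19 alternative settings. Inmt, a methyltransferase of indole amines, was at 1248, 1301, 1288 and 1338 TPM in PBS and at 672, 897, 882 and 846 TPM in NR (adjusted p = 0.00324). Neither gene overlapped between the groups. The steroid enzyme gene Hsd3b2 fell from 52.2 ± 3.04 to 29.8 ± 5.37 TPM, and the N-acetylaspartate hydrolase Aspa from 101 ± 14.5 to 61.6 ± 9.06 TPM. Ass1, the arginine synthesis enzyme, fell from 2291 ± 132 to 1600 ± 149 TPM, Tmem27, which traffics amino acid transporters, from 1222 ± 47.2 to 841 ± 87.8 TPM, and the carbonic anhydrase Car4 from 179 ± 7.74 to 123 ± 9.75 TPM. Falls of Akr1c21, Nat8f6, Nat8f7, Slc22a22 and Slc22a28, with log2 differences between -0.78 and -0.65, come from gene families with close copies whose reads may be shared. Apoh, Cttnbp2, Prok1, Adal, Cpq and Car14 completed the 15 largest falls, with log2 differences between -0.91 and -0.70.

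More distal segments gave few calls. Of 13 thick ascending limb genes none was called in either direction, although their median log2 difference was -0.45. Umod, encoding uromodulin, was at 354, 345, 595 and 980 TPM in PBS and at 233, 293, 412 and 653 TPM in NR, groups that overlapped (adjusted p = 0.602). Each NR library lay below the PBS library of the same number, but the labels give no pairing and the fit has no term for it. Of 14 genes of the distal convoluted tubule 1 was called lower (7.14%, against 1.21% of all tested genes), and all 14 had a negative difference. The called gene was Klhl3, a ubiquitin ligase adaptor that controls the sodium chloride cotransporter, at 8.84 ± 1.05 and 5.82 ± 0.517 TPM (adjusted p = 0.0157). The cotransporter Slc12a3 itself was at 336 ± 84.0 and 225 ± 51.1 TPM (adjusted p = 0.211), again with each NR library below the PBS library of the same number. Kl, the anti-ageing and FGF23 co-receptor gene klotho, was at 149 ± 24.0 and 101 ± 22.7 TPM (adjusted p = 0.102, and 0.0404 under median-of-ratios scaling, where it was called lower). None of 12 principal cell genes, 13 intercalated cell genes, 14 endothelial genes and 13 fibroblast and pericyte genes was called. Under median-of-ratios scaling 2 thick ascending limb, 4 distal convoluted tubule, 2 intercalated cell and 1 endothelial gene were called lower. The water channel Aqp2 was at 168 ± 22.6 and 205 ± 43.5 TPM (adjusted p = 0.262), and renin, Ren1, at 106 ± 37.6 and 77.0 ± 20.7 TPM. Of 13 podocyte genes 1 was called higher (7.69%, under the 8.79% of all tested genes), and 10 had a negative difference. The called gene was Cd2ap, at 15.4 ± 1.76 and 27.1 ± 3.86 TPM. Podxl, a surface sialomucin of podocytes, had 42.5 ± 13.98 and 33.8 ± 7.6 TPM.

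**Figure D3:**
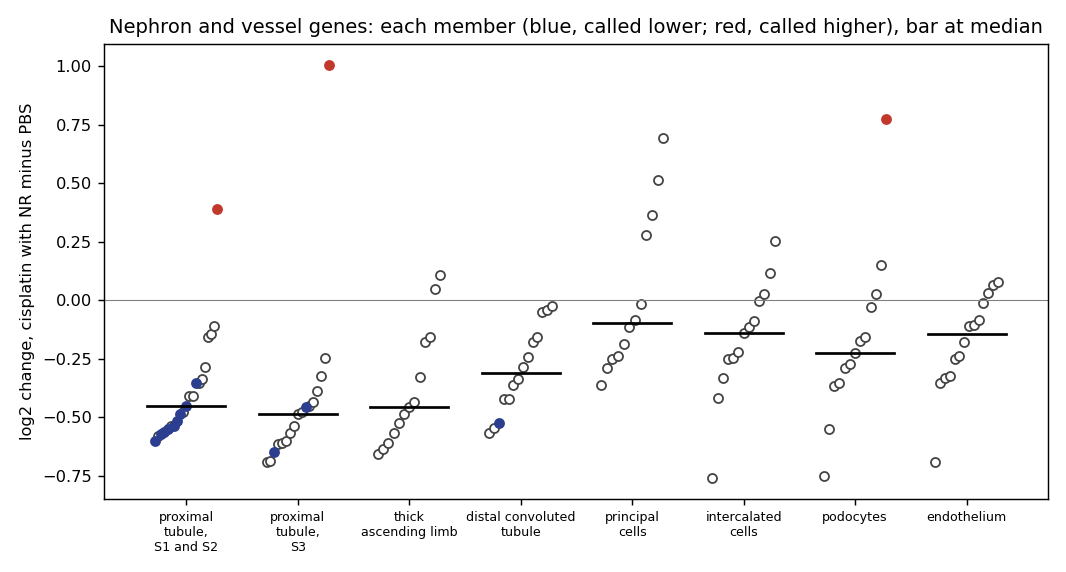
Difference of log2(TPM + 1) between NR and PBS for each tested member of 8 lists of nephron and endothelial genes (points; blue, called lower; red, called higher; open, not called), with the median as a bar. The S1 and S2 list has 9 blue points of 21, the S3 list 2 of 17 and the thick ascending limb list 0 of 13, while these 3 lists have medians between -0.49 and -0.45.

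Markers of immune cells did not move as a group. Of 13 tested macrophage and monocyte genes 2 were called, both higher (15.4%, against 8.79% of all tested genes). Cd68, a lysosomal membrane protein, was at 1.91, 2.8, 6.58 and 2.64 TPM in PBS and 39.2, 28.5, 31.7 and 37.1 TPM in NR (log2 difference 3.06, SE 0.27, adjusted p = 5.31e-07), and the endotoxin co-receptor Cd14 was at 1.83 ± 1.21 and 19.3 ± 4.49 TPM. The lineage receptor Csf1r was at 17.3 ± 4.61 and 13.2 ± 1.66 TPM (adjusted p = 0.225, and 0.0371 under median-of-ratios scaling, where it was called lower), and Adgre1 (F4/80) at 0.945 ± 0.433 and 0.905 ± 0.464 TPM. The summed level of the list was 49.6 to 116 TPM in PBS and 116 to 136 TPM in NR. None of 6 tested dendritic cell and MHC class II genes, 4 neutrophil genes and 3 lymphocyte genes was called, and the neutrophil genes Mpo and Elane were listed at 0 in all 8 libraries. The dendritic cell and MHC class II list had a median log2 difference of -0.45, with 5 of 6 below 0. That of the S1 and S2 proximal tubule list was also -0.45. None of 8 red blood cell genes was called, and Hbb-bs, a beta globin, was at 985 ± 270 and 680 ± 213 TPM. The red blood cell list had a median log2 difference of -0.51, with 7 of 8 below 0.

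Of 9 tested adipose genes 1 was called higher (11.1%, near the 8.79% of all tested genes), Cidec, a lipid droplet protein. Cidec was at 0, 3.43, 0.79 and 0.11 TPM in PBS and at 3.02, 5.81, 29.4 and 18.8 TPM in NR (adjusted p = 0.00753). The groups overlapped. The adipokine genes Adipoq, at 0, 3.98, 9.77 and 9.53 TPM in NR and 0, 2.87, 2.31 and 0 TPM in PBS, and Retn were not called. Levels of the whole list were highest in NR libraries 3 and 4, and their part in other differences was not tested.

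**Figure D4:**
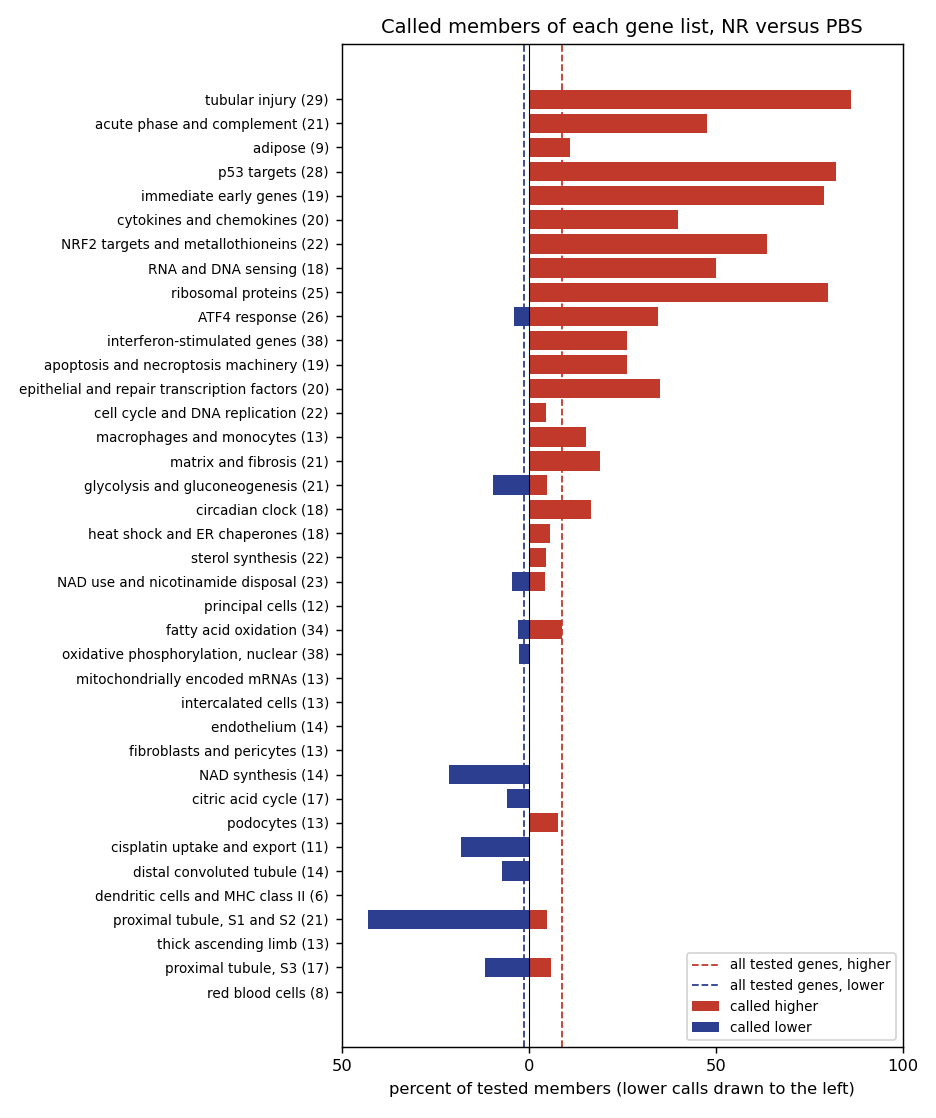
Percent of tested members of each gene list called higher (right, red) or lower (left, blue) in NR against PBS, lists with at least 6 tested members in the order of their median log2 difference, with the number tested in brackets. Dashed lines mark the 8.79% and 1.21% of all tested genes called higher and lower. The tubular injury list, with 86.2% higher, and the S1 and S2 list, with 42.9% lower, reach furthest to either side.

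Few genes of NAD metabolism were called, and their calls lay near the threshold. Of 14 tested NAD synthesis genes 3 were called lower (21.4%, against 1.21% of all tested genes) and none higher, all in the route from tryptophan. They were Kmo, with 49.7 ± 3.85 and 34.0 ± 2.52 TPM (adjusted p = 0.0391), Afmid, with 44.3 ± 4.6 and 34.7 ± 1.78 TPM (adjusted p = 0.0488), and Qprt, which makes the nicotinic acid nucleotide at its end. Qprt was at 45.9, 53.7, 55.4 and 56.8 TPM in PBS and 34.4, 37.6, 44.1 and 32.3 TPM in NR, without overlap (log2 difference -0.51, SE 0.16, adjusted p = 0.049). Of 19 alternative settings, the call was lost in 11 for Kmo, 10 for Afmid and 10 for Qprt. Nmrk1, the kinase that phosphorylates NR, was at 45.1, 60.5, 55.7 and 53.04 TPM in PBS and 36.6, 53.8, 45.3 and 43.8 TPM in NR, with overlap (adjusted p = 0.268). Under median-of-ratios scaling it was called lower (adjusted p = 0.0481). Nampt, the enzyme of the salvage route, was at 27.995 ± 4.24 and 30.5 ± 4.17 TPM (adjusted p = 0.734). Among 23 genes for the use of NAD and the disposal of nicotinamide, 1 was called higher (4.35%, under the 8.79% of all tested genes), the NAD hydrolase relative Bst1, at 1.58 ± 1.09 and 4.17 ± 0.794 TPM (adjusted p = 0.0397). In the same list 1 was called lower, Acmsd, at 50.6 ± 6.72 and 35.6 ± 6.79 TPM (adjusted p = 0.0391), an enzyme that diverts tryptophan away from NAD. The call was lost in 10 settings for Bst1 and 9 for Acmsd. Among the enzymes that consume NAD, Sirt1, Sirt3 and Parp1 were not called, with log2 differences of 0.44, -0.37 and -0.27.

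Energy metabolism showed small differences. Of 38 nuclear genes of oxidative phosphorylation 1 was called lower (2.63%, near the 1.21% of all tested genes). It was Sdhc, a succinate dehydrogenase subunit, at 281 ± 12.3 and 229 ± 15.5 TPM (adjusted p = 0.0444). The list's median log2 difference was -0.12, and 12 were called lower under median-of-ratios scaling. None of 13 mitochondrially encoded mRNAs was called in either direction, and their summed level was 250175 ± 33716 TPM in PBS and 231736 ± 27251 TPM in NR. Of 17 citric acid cycle genes 1 was called lower (5.88%, against 1.21% of all tested genes), and 8 under median-of-ratios scaling. The 1 gene was Idh2, at 281 ± 34.6 and 204 ± 25.8 TPM (adjusted p = 0.0452). The glucose-producing enzymes G6pc and Fbp1 were called lower, at 129 ± 13.3 and 88.0 ± 10.6 TPM and at 760 ± 71.7 and 555 ± 46.7 TPM. The glucose importer Slc2a1 (GLUT1) was called higher, at 10.4 ± 1.66 and 27.7 ± 4.24 TPM (adjusted p = 9.2e-06). Of 34 fatty acid oxidation genes 3 were called higher, among them Pdk4 and Acot1, and 1 lower (Acsm1). The 8.82% higher was near the 8.79% of all tested genes, and the counts were 2 higher and 6 lower under median-of-ratios scaling. Over the 19 alternatives the call was lost in 11 for Idh2, 10 for Fbp1 and 9 for Sdhc.

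A few genes were higher in NR than in both PBS and cisplatin alone. Cyp4a14 (chromosome 4, 115486200 to 115496142), a fatty acid omega-hydroxylase and classical target of the lipid-sensing receptor PPAR-alpha, was at 13.6, 13.0, 24.9 and 20.6 TPM in PBS and at 89.4, 37.2, 57.7 and 65.0 TPM in NR. The groups did not overlap (log2 difference 1.72, SE 0.27, adjusted p = 0.000295). Cisplatin alone gave 18.4 ± 5.68 TPM (adjusted p of NR against it 7.4e-05), and cisplatin with NMN 38.8 ± 8.04 TPM. By the same rule, Gsta2 was at 282 ± 64.6 TPM in PBS, 456 ± 48.1 TPM in NR, 315 ± 11.3 TPM after cisplatin and 383 ± 61.2 TPM with NMN. The glucuronosyltransferase gene Ugt2b34 was at 6.31 ± 0.953, 12.1 ± 2.49, 5.33 ± 2.79 and 9.73 ± 1.68 TPM in that order. These 3 genes have close paralogs. Pdk4, which restrains glucose oxidation, was at 4.42 ± 1.15 TPM in PBS and 22.0 ± 3.9 TPM in NR, but 60.8 ± 7.26 TPM after cisplatin. Acot1 was at 56.0 ± 9.98 TPM in PBS and 83.1 ± 16.4 TPM in NR, and was not called under median-of-ratios scaling (adjusted p = 0.12). NR library 1 was the highest of its group for Cyp4a14, Pdk4 and Acot1. Cyp4a10, named after its values were seen, was at 162 ± 30.6 and 240 ± 50.1 TPM with overlap (adjusted p = 0.0279, and 0.0706 under median-of-ratios scaling), and Ppara itself at 7.10 ± 2.95 and 14.972 ± 11.5 TPM (adjusted p = 0.176).

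**Figure D5:**
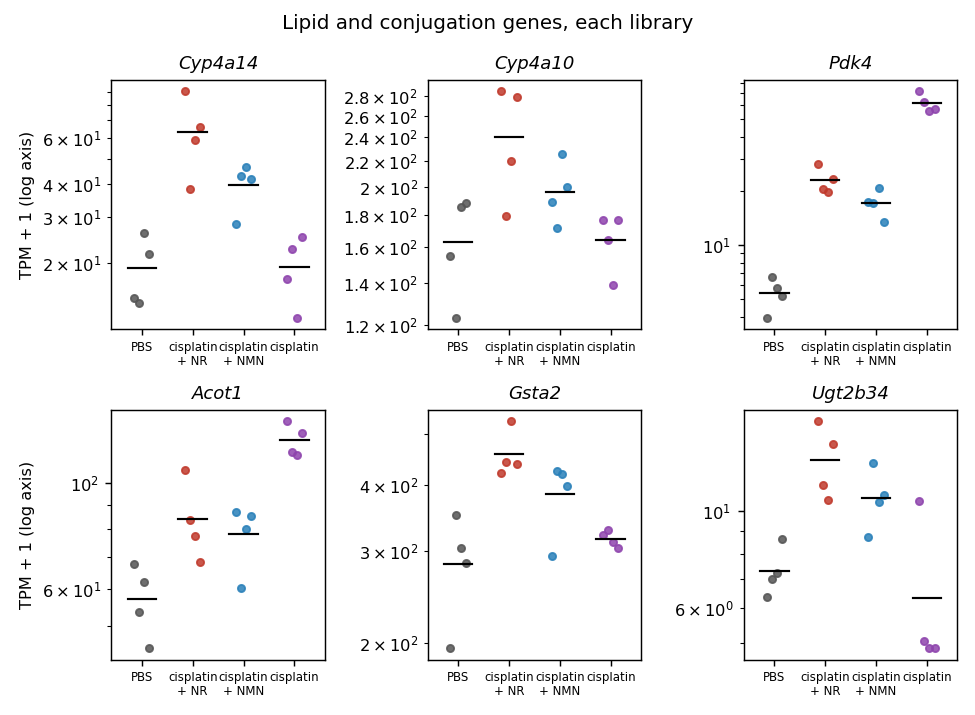
Levels in each of the 16 libraries (points, TPM + 1 on log axes whose ranges differ between panels) with group means (bars) for 6 genes of lipid use and conjugation. Cyp4a14, at 37.2 to 89.4 TPM in NR, lies above PBS and above cisplatin alone, whereas Pdk4 and Acot1 have their highest mean after cisplatin alone.

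Set against cisplatin alone, NR kidneys had 1870 genes higher (14.4%) and 4174 lower (32.2%), and cisplatin alone against PBS gave 5278 higher (40.7%) and 2415 lower (18.6%). These comparisons share libraries with that of NR and PBS. Tested directly, NR and NMN kidneys gave no called gene in either direction by limma (0.0% of 12960, lowest adjusted p 1.0). An unadjusted p under 0.05 was found for 370 genes, a share below the 0.05 that chance alone would give. For Havcr1 the NMN mean was 228 ± 91.6 TPM beside 278 ± 49.1 TPM with NR, and for Slc34a1 2400 ± 239 beside 2196 ± 180 TPM. Missing the threshold does not show that the 2 precursors act alike. Outside all lists, Cep85 was called higher, from 111 ± 27.9 to 1155 ± 186 TPM. It ends 1068 bases from Sh3bgrl3 on the same strand of chromosome 4, and Sh3bgrl3 was also called higher, from 96.8 ± 43.3 to 290 ± 39.0 TPM. Whether reads of one were assigned to the other was not tested. The carboxylesterase Ces2e rose from 8.21 ± 1.7 to 85.8 ± 9.82 TPM, the ephrin receptor Epha2 from 1.32 ± 0.282 to 15.1 ± 1.83 TPM, and Lce1d, from a family with close copies, was listed at 0 in PBS and at 8.86 ± 0.981 TPM in NR.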

How the data were processed

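RNA was measured in whole mouse kidneys, 4 libraries per group. Per the labels' protocols, total RNA was extracted with the RNeasy kit and libraries were made with the Illumina TruSeq kit. The submitters' processing notes name Trim Galore, STAR 2.4.1d, HTSeq 0.6.1, DESeq2 1.10.1 and the builds GRCm38 and mm10, and the computation of TPM is not given in the sources used here. In 1 table, the authors deposited TPM values, rounded to 2 decimals, for 23982 entries. Symbols were read from the last brackets of each entry, which gave 23935 symbols, after the 94 entries that share a symbol were summed. Positions came from GENCODE release 21 of the mouse (GRCm38), where 97.4% of symbols matched 1 gene. Promoters came from RefSeq (GRCm38.p6).

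From the deposited TPM, log2(TPM + 1) was fitted with limma 3.58.1 in R 4.3.3 over all 16 libraries, with 4 group means, 12 residual degrees of freedom, and trend and robust variance. Genes needed 1 TPM in at least 4 libraries, and the call was a Benjamini-Hochberg adjusted p under 0.05 over 12960 genes. The fit was tested on simulated data. Errors are SD over 4 libraries unless marked SE. TPM keeps no read depth, so no counting interval is given.

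Named genes were the 15 largest rises and falls among called genes without overlap and with a mean of at least 5 TPM in the higher group, up to 4 called members per list by smallest adjusted p, members called against their list, a fixed set of kidney genes, genes beyond both PBS and cisplatin, the 5 smallest adjusted p outside the lists and the 3 most abundant calls per direction. Further genes illustrate list counts and were chosen after their values were seen. Members and the 43 gene lists were chosen with earlier results of these data known. The alternatives were other scalings, pseudocounts, minimum levels, variance settings, library weights, a replicate block and left-out libraries. Some genes are not reported here.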

Additional observations from a re-analysis of the deposited data

Results flagged for a closer look

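In 13 of 286 groups of 4 libraries of named genes, 1 library stood apart from the other 3 by Dixon's criterion, which chance meets in about 1 in 20 groups. PBS library 2 was the high one for 4 genes. They were Cfd, at 47.49 TPM against 0.08 to 6.03 TPM, Retn, at 4.46 TPM against 0 to 0.23 TPM, Hp, at 4.79 TPM against 0.39 to 1.01 TPM, and Cd14, at 3.62 TPM against 0.97 to 1.4 TPM. That library also had the highest summed adipose level in its group, 126 TPM, whose part was not tested. PBS library 1 was the low one for Mt2, at 97.88 TPM against 153.27 to 163.16 TPM, Sdhc, at 263.12 TPM against 285.74 to 290.39 TPM, and Cttnbp2, at 3.25 TPM against 5.69 to 6.03 TPM. Bst1 was high in PBS library 3, at 3.2 TPM against 0.87 to 1.12 TPM. Sfn was low in PBS library 4, at 2.83 TPM against 3.52 to 3.66 TPM. In NR, Lcn2 was high in library 2, at 495.87 TPM against 405.08 to 410.81 TPM, and Ppara in library 4, at 32.18 TPM against 7.5 to 10.38 TPM. Fbp1 was low in NR library 1, at 485.72 TPM against 573.97 to 586.33 TPM, and Ccl2 in NR library 3, at 2.66 TPM against 2.96 to 3.01 TPM.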

How the results depend on the processing

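Over 19 alternatives no named gene that was called in either fit changed direction. Some named genes called in neither fit changed sign, for example Mavs, from 0.084 to -0.013 under median-of-ratios scaling. Of 132 called named genes, 88 were called in every alternative and 44 were lost in at least 1. Genes called lower numbered 478 under median-of-ratios scaling, 515 under quantile normalization and 294 without mitochondrially encoded genes. Without NR libraries 3 and 4, which leaves 2 NR libraries, 641 genes were called higher, 57 lower and 698 in all, with 6 interferon-stimulated, 5 sensing, 9 NRF2 and metallothionein, 5 ATF4 and 5 ribosomal genes higher and 1 S1 and S2 gene lower. The ribosomal count was 13 under median-of-ratios scaling and the S1 and S2 count 5 in limma without trend and robust variance. With 1 library left out, total calls ranged from 981 to 1262, higher calls from 816 to 1142 and lower calls from 56 to 165. Lower calls were 56 without NR library 1, 64 without PBS library 3, 77 without PBS library 4 and 103 without NR library 3. Over the same fits, members called higher ranged from 5 to 9 for sensing (5 without PBS library 1), from 12 to 20 for ribosomal genes (12 without PBS library 1, PBS library 4 or NR library 3), and from 8 to 12 for interferon-stimulated genes. S1 and S2 members called lower ranged from 3 to 7, against 9 with all libraries. The labels do not say that libraries of the same number were paired, and these values do not settle it. Same-numbered deviations correlated at 0.0544, 0.27, 0.0495 and 0.245, all positive, and other pairs between -0.242 and 0.119. NR library 1 correlated best with PBS library 4 (0.119) and NR library 3 with PBS library 2 (0.0834). Summed red blood cell genes ranked the libraries alike in both groups, at 1902, 3848, 3534 and 2720 TPM in PBS libraries 1 to 4. The NR values were 1297, 2628, 2138 and 1874 TPM. Summed tubular injury genes did not rank alike, at 1333, 1887, 1734 and 1465 TPM in PBS and 9845, 7592, 9142 and 9104 TPM in NR. The main fit has no term for library number. With the replicate block, 1195 genes were called higher and 283 lower, and 14 S1 and S2 members lower. Depth is unknown for these TPM values, so limits of detection for genes near 0 were not set. The cause of these shifts was not tested.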

Other observations

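Some further groups of genes were compared between NR and PBS. Of 18 circadian clock genes 3 were called higher and none lower, beside a background of 8.79% and 1.21%. They were the repressors Nfil3, at 1.51 ± 0.852 and 4.42 ± 1.41 TPM (adjusted p = 0.00338 by limma), Bhlhe40, at 32.9 ± 5.97 and 45.7 ± 5.94 TPM, and Cry1, at 1.08 ± 0.306 and 2.49 ± 0.755 TPM. The output genes Dbp and Tef were not called, with 166 and 125 TPM and with 124 and 90.7 TPM, but were called lower under median-of-ratios scaling (adjusted p = 0.0418 and 0.00659). The hour of collection is not given in the labels. Of 18 heat shock and endoplasmic reticulum chaperone genes 1 was called higher (5.56%, under the 8.79% of all tested genes). It was the small heat shock protein Hspb1, at 30.0 ± 15.6 and 98.8 ± 14.7 TPM. Hspa5, Hspa1a and Hsp90b1 had log2 differences between -0.12 and -0.01.

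Of 21 matrix and fibrosis genes 4 were called higher (19.0%, against 8.79% of all tested genes). Among them, Col18a1, a basement membrane collagen gene, was at 27.4, 40.6, 37.8 and 38.4 TPM in PBS and 117, 103, 107 and 107 TPM in NR, without overlap (log2 difference 1.58, adjusted p = 1.23e-05). The interstitial collagens Col1a1 and Col3a1 were not called, with 10.5 and 8.67 TPM and with 18.0 and 15.2 TPM. Of 11 genes of cisplatin uptake and export 2 were called lower (18.2%, against 1.21% of all tested genes). They were the exporter Slc47a1 (MATE1), at 285 ± 15.955 and 209 ± 14.8 TPM (adjusted p = 0.00263), and Ggt1. The importer Slc22a2 (OCT2) was at 191 and 141 TPM (adjusted p = 0.12). Of 22 sterol synthesis genes 1 was called higher (4.55%, under the 8.79% of all tested genes), Msmo1, at 14.1 ± 1.93 and 20.032 ± 2.47 TPM. Its call was lost in 14 of the 19 alternatives.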
